A study of Mus musculus with 4 samples.

Results

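Malat1, Neat1, Rn7sk, Rmrp, Rpph1, Terc, Gas5 and Kcnq1ot1 are noncoding RNAs, most of them nuclear or part of RNA-protein particles, and were chosen by name and Ensembl ID. Of the 53465 IDs in the count table, these 8 were looked up whatever their reads. Reads were counted for 6 of them, and 5 reached a mean of 1 CPM (count per 1000000 counts of a library), the level at which 12920 genes were compared. They were described as a check on what is recovered with YTHDF1, which reads N6-methyladenosine (m6A) in messenger RNA in the cytoplasm, where RNAs kept in the nucleus are not found.

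The RNA came from Hepa 1-6, a mouse hepatocellular carcinoma line, in 4 groups of 1 library each. Cells with a control guide (sgcontrol, genotype WT in the labels) and cells with a guide for Usp5 (sgUsp5, called Usp5 Knockdown there), a ubiquitin-specific protease, were lysed, and 10% of each lysate was kept as input. The rest went to RNA immunoprecipitation (RIP) with an antibody to YTHDF1, and all libraries were depleted of ribosomal RNA and primed at random, so that RNA without a poly(A) tail can be read. Whether the cells with either guide were 1 clone or a pool is not given in the sources used here. The libraries held 29898171 to 33941019 counts. Each guide gave 1 lysate, so the p-values below measure only the spread between these libraries. With 1 residual degree of freedom, they and the SEs lean on spread shared over many genes, more than on that of each RNA. No precipitate with a control antibody was used here, and the counts give each RNA's share of a library, not the part of it that was recovered. The table lists IDs without names. The levels of Usp5 and Ythdf1 and the hepatocyte markers were therefore not checked, and the labels of guide and cell type stand as given.

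Malat1 and Neat1 are long RNAs transcribed from neighbouring genes. Malat1 gathers in nuclear speckles, where splicing factors collect, and carries well studied m6A sites, and Neat1 is the scaffold of paraspeckles. Rn7sk (7SK) is a short RNA made by RNA polymerase III that holds the elongation factor P-TEFb inactive in the nucleus. Rmrp and Rpph1 are the RNA subunits of the RNases MRP and P, which process ribosomal and transfer RNA, and Terc is the template RNA of telomerase. Gas5 hosts small nucleolar RNAs in its introns, and its spliced RNA reaches the cytoplasm. Kcnq1ot1 is a long, unspliced RNA that silences imprinted genes around its own locus.

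RefSeq (GRCm38.p6, the assembly behind mm10) places Malat1 (ENSMUSG00000092341) at chr19:5795690-5802672 and Neat1 (ENSMUSG00000092274) at chr19:5824708-5845480, with 22035 bases between them. Rn7sk (ENSMUSG00000065037) lies at chr9:78175302-78175633, Rmrp (ENSMUSG00000088088) at chr4:43492785-43493059, Rpph1 (ENSMUSG00000092837) at chr14:50807447-50807771 and Terc (ENSMUSG00000064796) at chr3:96414437-96414833. Gas5 (ENSMUSG00000053332) lies at chr1:161034601-161038539 and Kcnq1ot1 (ENSMUSG00000101609) at chr7:143213111-143296547. Several of these spans are shared. Kcnq1ot1 lies within the protein-coding gene Kcnq1, and the span of Gas5 holds 8 small nucleolar RNAs and meets the end of Zbtb37. Malat1 contains Mascrna, a short RNA cut from its end. How strand and shared reads were handled in counting is not given in the sources used here, so reads of these neighbours cannot be told apart from those of the 3 RNAs. Rn7sk also has many near-identical copies in mammalian genomes, and its count is uncertain for that reason.

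RefSeq start sites were at hand for 3 of the 8. The 50 genomic bases from each start are shown because they tell apart the annotated starts of Gas5, of which the downstream one begins with the run of pyrimidines known as a 5′ terminal oligopyrimidine tract. Such tracts put the translation of an RNA under the control of mTORC1, the kinase complex named in the title of the study. Capitals mark the run of C and T that begins at base 1. All are on mouse GRCm38.p6, read 5′ to 3′ on the strand of the RNA. They are genomic sequence, so for the spliced Gas5 they can run into an intron.
Malat1 (chr19:5802623-5802672, minus strand): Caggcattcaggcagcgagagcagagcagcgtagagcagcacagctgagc
Kcnq1ot1 (chr7:143296498-143296547, minus strand): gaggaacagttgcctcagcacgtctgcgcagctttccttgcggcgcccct
Gas5, upstream start (chr1:161034601-161034650, plus strand): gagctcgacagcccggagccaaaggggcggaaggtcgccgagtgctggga
Gas5, downstream start (chr1:161035166-161035215, plus strand): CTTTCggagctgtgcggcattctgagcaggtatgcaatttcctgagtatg
The downstream start of Gas5 opens with a C and 5 pyrimidines in a row, as do 823 of 32851 RefSeq start windows (2.51%). Malat1 opens with 1 pyrimidine, and Kcnq1ot1 and the upstream start of Gas5 with a purine. The upstream start of Gas5 lies within the span of Zbtb37. Counts per gene do not show which Gas5 start was used.

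The 8 RNAs together took 0.388% of all counts in the input and 0.139% in the RIP of control guide cells, and 0.491% and 0.159% in those of Usp5 guide cells. Most of these reads came from Malat1 and Rn7sk, and in the inputs nearly all of them. In the inputs Malat1 had 74673 counts with the control guide and 80371 with the Usp5 guide, and was number 27 and number 23 among all IDs by reads. Rn7sk had 40187 and 70939 counts there, at ranks 64 and 30. In both fractions and with both guides the order of reads was Malat1, Rn7sk, Kcnq1ot1, Neat1 and Gas5.

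Per length the order was another. Per kilobase of annotated span, Rn7sk stood at 3929 CPM in the control input and 6730 CPM in the Usp5 guide input, the highest among the 8, while Malat1 stood at 347 and 362 CPM. Neat1 was at 2.67 and 2.51 CPM per kilobase and Kcnq1ot1 at 0.977 and 0.921, the lowest of the 5. For Neat1 the span is that of the long form, and reads of its short form, which covers only the start, lower the figure. Gas5 stood at 4.67 and 3.52 CPM per kilobase of a span that includes its introns.

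**Figure D1:**
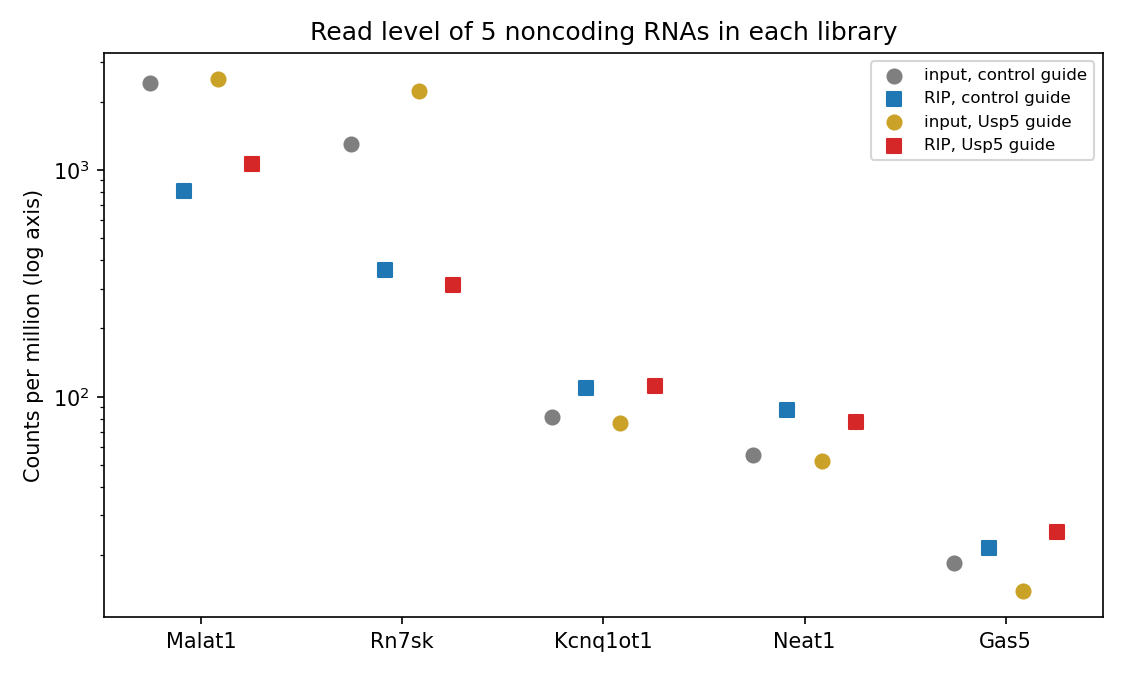
CPM on a log axis for the 5 RNAs that passed the filter, 1 point for each of the 4 libraries (circles for inputs, squares for RIP, colours for the guide). Malat1 and Rn7sk lie lower in the RIP than in the input with either guide, from 2424 to 807 CPM for Malat1 and from 1305 to 362 CPM for Rn7sk with the control guide, and the points of the other 3 RNAs lie higher in the RIP with either guide, from 55.5 to 87.5 CPM for Neat1 with the control guide and from 13.9 to 25.4 CPM for Gas5 with the Usp5 guide.

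The first comparison asked how much of each RNA was found in the YTHDF1 precipitate relative to the input. Malat1 and Rn7sk were under-represented in the RIP, 2.98-fold and 5.67-fold over both guides. Neat1, Kcnq1ot1 and Gas5 did not pass the test. Of the 5 RNAs tested, 2 were lower and 0 higher in the RIP at an adjusted p under 0.05 (edgeR's quasi-likelihood test over the 4 libraries with the guide as a term, 1 residual degree of freedom). DESeq2 gave the same numbers. At an unadjusted p under 0.05 in the edgeR test, Neat1 was also higher. Such a p was common, found in either direction for 4363 of the 12920 genes. Over all 12920 genes the same test called 11.3% lower and 10.2% higher. The median log2 change of the 5 was 0.32, against 0.08 over all genes tested.

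Malat1, the RNA of nuclear speckles, fell from 74673 counts in the input to 27389 in the RIP with the control guide, and from 80371 to 31767 with the Usp5 guide. Both RIP libraries lay below both inputs. How many other genes separated in this way, here and for the RNAs below, was not counted. The log2 ratio of RIP to input, scaled by library size, was -1.77 with the control guide (95% counting interval -1.79 to -1.75), or 3.41-fold lower, and -1.38 with the Usp5 guide (-1.40 to -1.36), or 2.61-fold lower. Over both guides the log2 change was -1.58 (SE 0.112), with an edgeR adjusted p of 2.8e-05. Among the 5126 abundant genes, those at a mean log2 CPM of 5 or more, 69 had a lower ratio with the control guide and 122 with the Usp5 guide.

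Rn7sk, the RNA that restrains P-TEFb, was depleted further. It fell from 40187 counts in the input to 12294 in the RIP with the control guide, and from 70939 to 9274 with the Usp5 guide. The inputs lay far above the RIP libraries with either guide, and the higher input came with the lower RIP. The log2 ratio was -2.03 with the control guide (counting interval -2.06 to -2.00), or 4.09-fold lower, and -2.98 with the Usp5 guide (-3.01 to -2.95), or 7.88-fold lower. Over both guides the log2 change was -2.50 (SE 0.191), with an edgeR adjusted p of 4.8e-05. This SE leans on the spread of other genes, and the ratios of Rn7sk with either guide lay further apart than it conveys. Only 32 of the 5126 abundant genes had a lower ratio with the control guide, and 8 with the Usp5 guide.

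Counting intervals leave out the scatter between libraries, which over genes of middle abundance was 57.7 times the binomial variance between the inputs and 18.4 times between the RIP libraries. The protocol describes PCR but no molecular identifiers, and copies of 1 molecule may be counted more than once. With intervals widened by these values, Malat1 was still more than 2-fold lower in the RIP with either guide (log2 -1.88 to -1.66 and -1.48 to -1.28), and so was Rn7sk (-2.18 to -1.88 and -3.13 to -2.83). Malat1 and Rn7sk lie above the middle range, at mean log2 CPM of 10.6 and 9.56, and the scatter was not estimated at their level. Their widened intervals, here and below, may therefore be too narrow. Among the abundant genes, log2 ratios of guide to guide had an SD of 0.394 between the inputs and 0.237 between the RIP libraries. By the size rule for 1 pair of libraries, a ratio past 2-fold whose counting interval leaves out 1, the same 2 of 5 RNAs were lower with each guide and 0 of 5 were higher. That rule has no test. It counted 15% of all genes lower and 18.4% higher with the control guide, and 13.7% and 15.9% with the Usp5 guide.

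Neat1, the paraspeckle scaffold, was read 1710 times in the input and 2970 times in the RIP with the control guide, and 1653 and 2317 times with the Usp5 guide. Both RIP libraries lay above both inputs. The log2 ratios were 0.47 (counting interval 0.39 to 0.56) with the control guide and 0.44 (0.35 to 0.54) with the Usp5 guide, nearly the same value. Over both guides the log2 change was 0.46 (SE 0.200), with an edgeR adjusted p of 0.135, which does not pass. Neat1 was called in only 1 of 13 other fits, that without the control input and without the guide as a term (log2 change 0.54). That fit rests on 1 input library. Of the abundant genes, 74.2% had a lower ratio with the control guide and 74.9% with the Usp5 guide, and the rest were enriched further.

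Kcnq1ot1, the silencing RNA of its imprinted domain, was read 2512 times in the input and 3712 times in the RIP with the control guide, and 2440 and 3331 times with the Usp5 guide. The RIP libraries again lay above the inputs. Its log2 ratios were 0.24 (counting interval 0.17 to 0.31) and 0.41 (0.33 to 0.48), and the change over both guides was 0.32 (SE 0.181, edgeR adjusted p = 0.247). Gas5, the host of small nucleolar RNAs, was read 567 times in the input and 727 times in the RIP with the control guide, and 440 and 759 times with the Usp5 guide. Its log2 ratio was 0.04 with the control guide (counting interval -0.12 to 0.20) and 0.74 with the Usp5 guide (0.57 to 0.92), and over both guides 0.39 (SE 0.344, edgeR adjusted p = 0.482). The widened intervals of Neat1, Kcnq1ot1 and Gas5 included no difference with either guide.

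**Figure D2:**
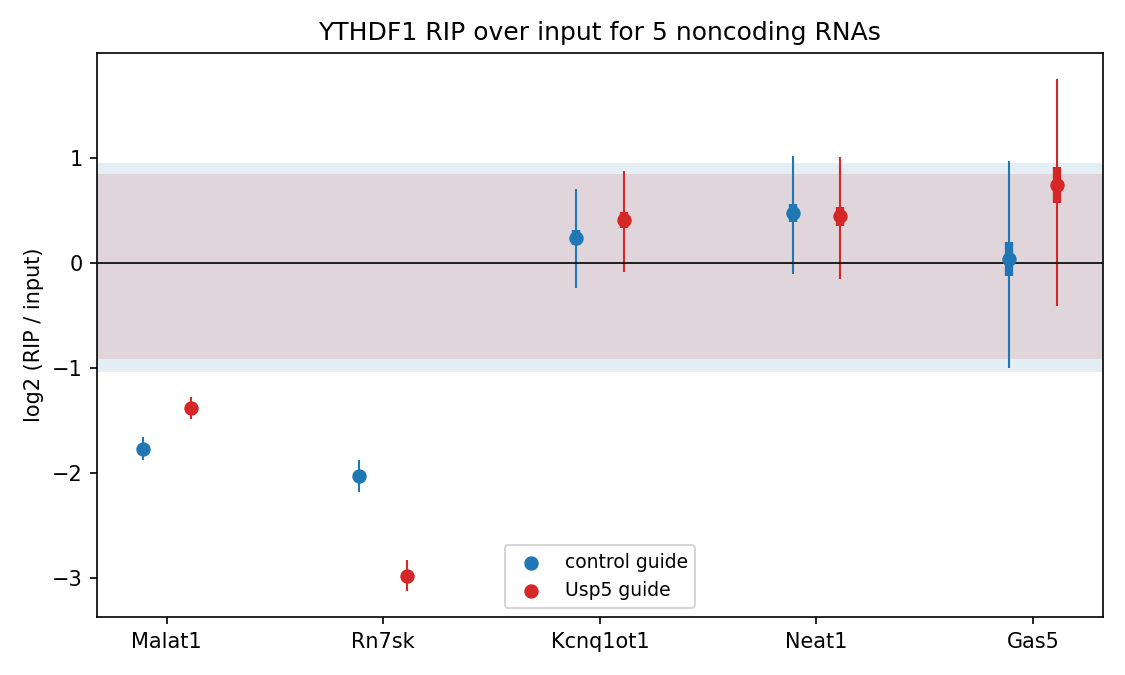
log2 ratio of RIP to input for each RNA with the control guide (blue) and the Usp5 guide (red). Thick bars are 95% counting intervals, and thin bars are intervals widened by the scatter of genes of middle abundance between libraries. The shaded bands hold the middle 80% of the 5126 abundant genes. Malat1 and Rn7sk lie below the bands with both guides, and Neat1, Kcnq1ot1 and Gas5 lie inside them.

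The difference between Malat1 and Neat1 does not depend on how libraries are scaled, since both are read in the same library. With the control guide there were 43.7 Malat1 reads for each Neat1 read in the input and 9.22 in the RIP, and with the Usp5 guide 48.6 and 13.7. The enrichment of Malat1 was thus 4.74-fold below that of Neat1 with the control guide (log2 difference -2.24, counting interval -2.33 to -2.16) and 3.55-fold below it with the Usp5 guide (-1.83, -1.92 to -1.73). These nuclear RNAs from neighbouring genes therefore differed in the RIP in the same direction with both guides. Malat1 and Rn7sk lay close together with the control guide, at 1.86 Malat1 reads for each Rn7sk read in the input and 2.23 in the RIP. With the Usp5 guide these values were 1.13 and 3.43. Neat1 and Kcnq1ot1 kept nearly the same proportion in all libraries, with 0.681 and 0.800 Neat1 reads for each Kcnq1ot1 read in the input and RIP of control guide cells and 0.677 and 0.696 with the Usp5 guide. These pairs were not tested.

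**Figure D3:**
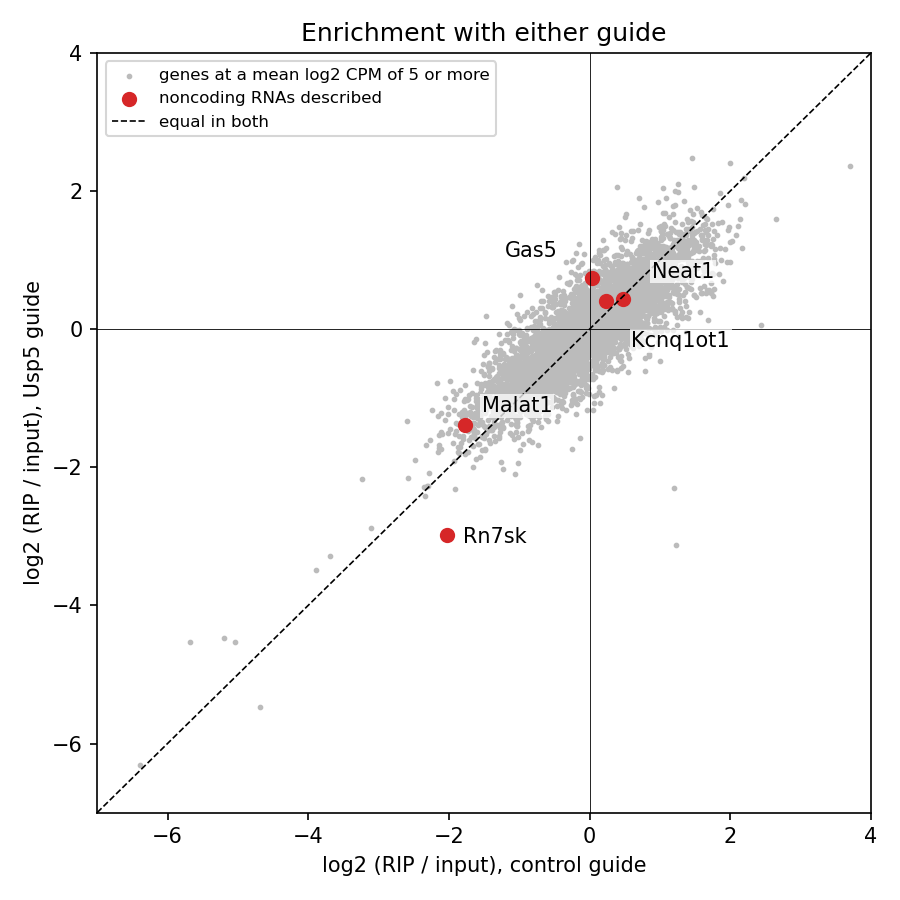
log2 ratio of RIP to input with the Usp5 guide against that with the control guide; grey points are the 5126 abundant genes, red points the 5 noncoding RNAs (Gas5 is below that abundance), and the dashed line marks equal values. Rn7sk (ENSMUSG00000065037) lies at -2.03 and -2.98, below the dashed line and apart from most grey points, and Malat1 lies at -1.77 and -1.38, at the lower end of their cloud.

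The short RNAs other than Rn7sk were hardly read. Rmrp and Rpph1 had 0 counts in each of the 4 libraries, which allows up to 3 counts, or 0.0884 to 0.100 CPM, in a library. No reads in any library were counted for 31435 of the IDs (58.8%). Terc had 0 counts in the control input, 5 in the Usp5 guide input, 7 in the control RIP and 0 in the Usp5 guide RIP, and was not compared. Its RIP was thus the higher library with the control guide and the input with the Usp5 guide, at counts close to the limit. Rn7sk, at 332 bases, is about as long as Rmrp (275 bases), Rpph1 (325 bases) and Terc (397 bases), and had at least 9274 counts in every library. Whether the 0 counts of Rmrp and Rpph1 come from the cells, the library preparation or the counting was not tested.

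The second comparison asked whether the RNAs differed with the Usp5 guide. None of the 5 passed the test over both fractions (edgeR's quasi-likelihood test with the fraction as a term), 0 of 5 had an unadjusted p under 0.05, and DESeq2 called 0 of 5. Over all genes that test called 0.0232% lower and 0% higher with the Usp5 guide (3 genes and 0 genes), and 612 of 12920 genes had an unadjusted p under 0.05. DESeq2 called 10 lower and 12 higher. The log2 changes of the 5 ran from -0.17 (Neat1, SE 0.200) to 0.24 (Rn7sk, SE 0.182), and their edgeR adjusted p-values from 0.942 to 0.982. This fit averages the inputs and the RIP libraries, and a gene that moved in opposite ways in these fractions would be close to 0 in it.

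For Rn7sk the fractions went opposite ways. Between the inputs it was 1.64-fold higher with the Usp5 guide (log2 ratio 0.71, counting interval 0.69 to 0.73, widened interval 0.58 to 0.84). Between the RIP libraries it was 1.18-fold lower (log2 ratio -0.24, counting interval -0.27 to -0.20, widened -0.40 to -0.07). Its enrichment was therefore 1.93-fold lower with the Usp5 guide (log2 ratio of enrichments -0.95, counting interval -0.99 to -0.90, widened -1.16 to -0.73), and the larger part of that difference lay between the inputs. This is just short of the 2-fold of the size rule, also with library totals in place of TMM factors. A difference at least as large in either direction was found for 175 of the 5126 abundant genes (3.41%), and an input ratio as far from 0 for 364 of them (7.10%). With 1 library a group, the difference has no replicate check, and the spread of Rn7sk between cultures was not measured.

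Malat1 had the same level in both inputs, with a log2 ratio of -0.002 (counting interval -0.017 to 0.012), whose sign turned with library totals (0.06). Between the RIP libraries it was 1.31-fold higher with the Usp5 guide (log2 ratio 0.38, counting interval 0.36 to 0.41, widened 0.28 to 0.48). Its depletion from the RIP was thus smaller with the Usp5 guide, by 0.39 on the log2 scale (counting interval 0.36 to 0.41, widened 0.24 to 0.54), the opposite direction to Rn7sk. Such a difference was common: 1646 of the 5126 abundant genes (32.1%) had one at least as large.

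For Neat1, the Usp5 guide over the control guide gave log2 ratios of -0.16 between the inputs and -0.19 between the RIP libraries, and its enrichment differed by -0.03 (counting interval -0.16 to 0.10), within counting error. For Kcnq1ot1 these were -0.15 and 0.01, with a difference in enrichment of 0.17 (0.06 to 0.27). Gas5 was 1.39-fold lower in the input (log2 -0.47, counting interval -0.66 to -0.29) and 1.18-fold higher in the RIP (0.23, 0.08 to 0.38) with the Usp5 guide. Its enrichment was 1.63-fold higher (log2 0.71, 0.47 to 0.94), but the widened interval ran from -0.78 to 2.15. Across these 3 RNAs the widened intervals of all differences between the guides included 0.

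By the size rule 0 of the 5 RNAs were called in the inputs, where 12.4% of all genes were counted higher and 12.1% lower with the Usp5 guide. The rule called 0 of 5 in the RIP libraries (background 4.55% higher and 4.64% lower) and 0 of 5 in the ratio of enrichments (13.3% higher and 13.8% lower). No test was made in any of these, and most of the genes counted in the background were less abundant than these RNAs. Among the abundant genes alone, 1.46% had a ratio of enrichments counted as higher and 1.15% as lower.

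**Figure D4:**
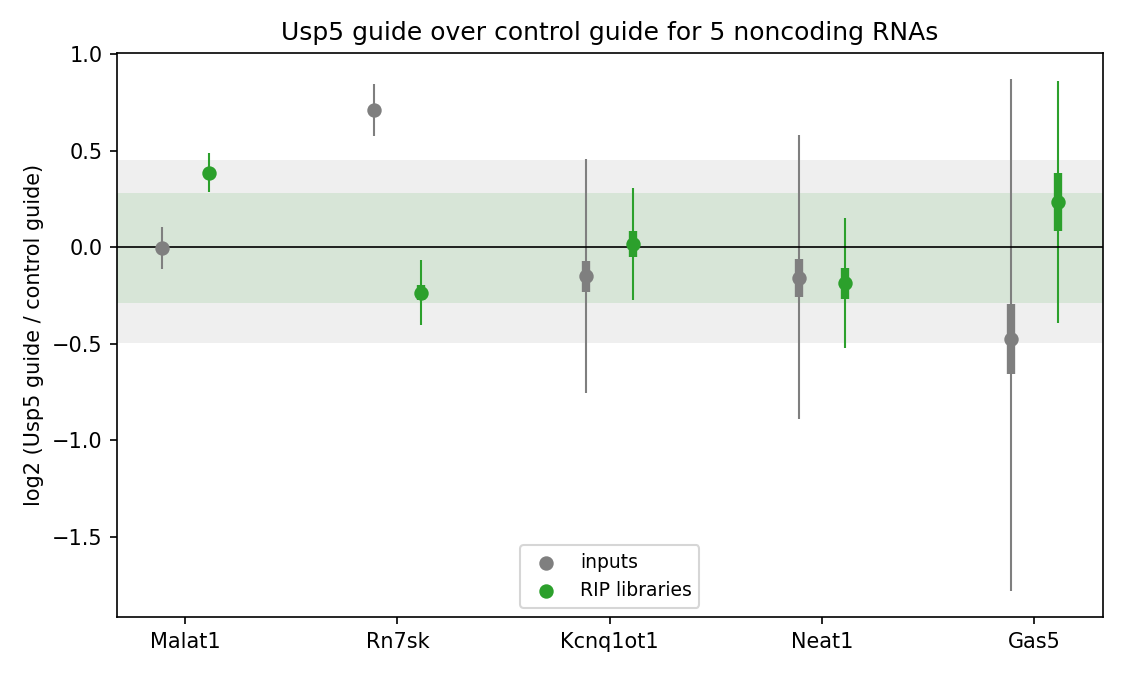
log2 ratio of the Usp5 guide to the control guide for each RNA in the inputs (grey) and in the RIP libraries (green), with 95% counting intervals (thick) and widened intervals (thin); shaded bands hold the middle 80% of the 5126 abundant genes. Rn7sk lies above 0 in the inputs (0.71) and below 0 in the RIP libraries (-0.24), and Malat1 lies at 0 in the inputs and at 0.38 in the RIP libraries.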

How the data were processed

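The authors deposited raw read counts per Ensembl gene ID for the 4 libraries. The tools named are HISAT2 2.1.0 and featureCounts 1.6.3, with the mm10 build, per the submitters' processing notes. The annotation release, and how strand and reads with several matches were treated, is not given in the sources used here. Columns were matched to samples through the descriptions in the labels. All 8 RNAs, named from a given list of IDs, are described whatever their values. The reference tables held no Ensembl IDs, so other gene lists (partner proteins, other small RNAs, cell type markers, Usp5, Ythdf1) were not analysed here. The 8 RNAs and the lists were chosen with earlier results of these data known.

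Counts were scaled with TMM factors (0.926 to 1.06), and genes averaging 1 CPM or more were compared. RIP over input and guide over guide were tested in 1 fit with both terms (edgeR 4.0.16, R 4.3.3, Benjamini-Hochberg adjustment over 12920 genes); SEs are the log2 change over the root of its F. Ratios within pairs of libraries add 0.5 counts, and their intervals are exact (Clopper-Pearson) for the share of reads in 1 of the pair; those of ratios of enrichments come from the sum of reciprocal counts. Widened intervals divide counts by the scatter among genes of middle abundance, then add 0.5. Alternatives included DESeq2 1.42.0, other scalings and filters. The code was tested on simulated data with a fixed scatter, not that of these libraries, and with no enrichment that differed between the guides. That test checks the code and not the calls made here.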

Additional observations from a re-analysis of the deposited data

Results flagged for a closer look

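With 1 library a group these differences were not tested. The ratio of the Usp5 guide to the control guide had opposite signs in the inputs and the RIP libraries for the RNAs below, as it had for 6087 of the 12920 genes compared (47.1%), so opposite signs as such were common. Rn7sk had log2 ratios of 0.71 in the inputs and -0.24 in the RIP libraries, and Gas5 of -0.47 and 0.23. Malat1 had -0.0024 and 0.38, and Kcnq1ot1 -0.15 and 0.015, and for both the counting interval of the value nearest to 0 included 0. With library totals, or TMM over abundant genes, both values of Malat1 were above 0. Terc had opposite signs too, but on 7 counts or fewer. With 3 counts in place of 0, its log2 ratio of guide to guide was 0.63 in the inputs and -1.05 in the RIP libraries. Its RIP over input was then 0.90 with the control guide and -0.78 with the Usp5 guide. These values take the counts of Terc above 0 as exact, and are therefore not limits. In each of these pairs of libraries the intervals for its share of counts overlapped, so the absence of a difference is not excluded.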

How the results depend on the processing

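The calls of Malat1 and Rn7sk in RIP over input held in all 13 other fits, with log2 changes of -1.77 to -1.38 and -2.86 to -2.15, and no RNA was called for the guide in any of them. Of 250 other recomputed log2 ratios of the 5 RNAs, 0 changed call, 22 moved beyond the main counting interval and 3 changed sign. The last were Malat1 between the inputs, 0.06 with library totals and 0.03 with TMM over abundant genes, and Gas5 in control RIP over input with widened intervals (-0.02). Each lay within the widened interval of 0. By construction, ratios under other filters, or without an interval, equal the main ones, so these settings could not move a ratio. TMM without the 5 RNAs was chosen after seeing the data. Library totals moved the median of all genes to 0.21 and 0.15 in RIP over input with the control and Usp5 guide, and of the genes past the size rule 66.4% and 63.1% were then higher, in place of 55.0% and 53.7%; relative to these medians Malat1 and Rn7sk stayed lower. They also moved the genes lower in the test of RIP over input from 1461 to 969. With no replicate block, the genes lower in the guide test went from 3 to 0. That test gave 9 higher and 9 lower genes at 5 CPM or more, and 12 and 10 with DESeq2.

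With 1 library left out, and no replicate block since the fit would have no residual degrees of freedom, RIP over input called 249 to 2982 genes higher, 444 to 2709 lower, and 0 to 1 of the RNAs higher; this was Neat1 without the control input, with log2 changes over the 4 fits of 0.36 to 0.55. The guide test gave 0 to 4 genes higher and 0 to 10 lower, and log2 changes of -0.75 to 1.24 (Malat1), -0.41 to 0.082 (Neat1), -1.58 to 1.92 (Rn7sk), -0.49 to 0.26 (Gas5) and -0.28 to 0.14 (Kcnq1ot1). By construction these mix fraction with guide, and their signs are not read.

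The counts over all genes depend on low counts. In the order control and Usp5 guide RIP over input, inputs, RIP libraries (higher, then lower), no filter gave 4604, 3137, 4354, 2872, 2844, 2882, 2329 and 2334; 5 CPM or more gave 1399, 1195, 1101, 993, 658, 630, 109 and 115, with 738 and 789 for the ratio of enrichments. Widened intervals gave 679, 1272, 524, 993, 97, 122, 76, 73, 127 and 112. The main values were 2375, 1944, 2058, 1771, 1597, 1568, 588, 599, 1716 and 1779. Terc, Rmrp and Rpph1, at 0 to 7 counts, were not recomputed.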
